A study of Mus musculus with 15 samples.

Results

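Disallowed genes are genes that most tissues express and that the mature pancreatic β cell keeps silent. The 10 described here are Ldha, Slc16a1, Hk1, Acot7, Oat, Lmo4, Maf, Cxcl12, Igfbp4 and Pdgfra, taken by symbol as 10 of the 23699 lines of each gene table. They were followed in 15 RNA-seq libraries of red fluorescent (RFP+) mouse islet cells that had been sorted by aldehyde dehydrogenase activity (aldefluor) into ALDH- and ALDH+ cells.

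The RFP label was switched on by cre recombinase, so it marks cells in which cre was active and their descendants. Control mice are labelled as heterozygous for Foxo1, Foxo3 and Foxo4, and knockout mice as lacking all 3 genes, on a mixed 129JC57BL/6 background. There were 3 ALDH- control, 5 ALDH- knockout, 2 ALDH+ control and 5 ALDH+ knockout libraries. In 9 of the 15 libraries cre was RIP-Cre, driven by the insulin promoter and active in differentiated β cells. In the other 6 it was Pdx-Cre, active in pancreatic precursors, so that other islet cells and exocrine cells can carry the label as well. Each group held both drivers: ALDH- control 2 RIP-Cre and 1 Pdx-Cre, ALDH+ control 1 and 1, and each knockout group 3 and 2. The methods of the study give an age of 6 months and pools of 10 to 20 animals per genotype for the RIP-Cre mice, and describe their controls as Foxo wild type, which differs from the labels. An age for the Pdx-Cre mice is not given in the sources used here. The driver also runs with the order in which the libraries were numbered, so driver and library order cannot be told apart.

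Insulin secretion depends on sending glucose carbon into mitochondria. Glycolysis in the β cell follows the blood glucose level, and pyruvate then enters mitochondria instead of leaving as lactate. A high-affinity hexokinase (Hk1), lactate dehydrogenase A (Ldha) and the plasma membrane lactate and pyruvate carrier MCT1 (Slc16a1) would each bypass this coupling, which is the usual account of why β cells silence them. The other members serve in fatty acyl-CoA hydrolysis (Acot7), ornithine breakdown (Oat), transcription (Lmo4 and Maf) and signalling between cells (Cxcl12, Igfbp4 and Pdgfra).

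The promoters of Ldha and Slc16a1 are shown because these genes carry the lactate step of the description that follows. The 250 bases before a RefSeq start site of each gene (GRCm38.p6) are written 5′ to 3′ in the direction of the gene, with capitals marking every ACGTG on either strand. ACGTG is the core of the element bound by hypoxia-inducible factors, and CACGTG, a palindrome that holds it on both strands, is the E-box bound by factors such as Myc. The Ldha window lies at chr7:46845554-46845803 on the plus strand and the Slc16a1 window at chr3:104638414-104638663 on the plus strand.

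Ldha: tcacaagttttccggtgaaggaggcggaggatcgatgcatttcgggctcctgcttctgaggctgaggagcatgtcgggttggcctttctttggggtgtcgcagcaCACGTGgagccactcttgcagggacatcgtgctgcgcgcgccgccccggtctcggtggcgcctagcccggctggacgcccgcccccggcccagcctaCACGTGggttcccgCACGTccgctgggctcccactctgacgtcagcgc

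Slc16a1: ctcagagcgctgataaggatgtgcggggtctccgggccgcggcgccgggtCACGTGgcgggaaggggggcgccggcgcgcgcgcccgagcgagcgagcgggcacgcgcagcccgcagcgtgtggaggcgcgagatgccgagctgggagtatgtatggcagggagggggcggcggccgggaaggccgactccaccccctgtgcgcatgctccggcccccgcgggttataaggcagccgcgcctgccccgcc

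The Ldha window held the letters in 3 places, 2 of them as CACGTG, and the Slc16a1 window in 1 place, as CACGTG. A second Ldha start site had none. RefSeq promoters were found for 9 of the 10 members, with 13 start sites in all. ACGTG was present in 4 of these 13, against 16.6% of all 32851 start sites, and CACGTG in 2 of the 13, against 6.02% of all. The 4 include 2 Lmo4 start sites whose windows overlap and share 1 ACGTG, so it lies at 3 of the 9 members. These matches describe the letters only.

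Markers of β cells were present in all 15 libraries but differed with the driver. Iapp, the islet amyloid hormone, ran between 33196 and 125094 FPKM (fragments per kilobase of transcript, scaled to the depth of the library) and overlapped between drivers. The sort was visible in Aldh1a3, at 22.1 to 76.9 FPKM in ALDH+ and 0.490 to 4.09 FPKM in ALDH- libraries. Foxo1 ran from 12.04 to 20.1 FPKM in controls and from 0.0925 to 4.24 FPKM in knockouts. The Foxo3 difference did not pass the test (log2 fold change -0.09, SE 0.24, adjusted p = 0.968), and Foxo4 was at or below 1.34 FPKM in every library. The libraries held 7492220 to 10058043 fragments summed over genes. The Pdx-Cre libraries stood apart. Gcg, Sst and Ppy, the hormones of the α, δ and PP cells, each lay above every RIP-Cre library in 4 of the 6, and so did the acinar enzyme gene Ctrb1 in 4 of the 6. In the ALDH- control Ctrb1 was at 8.14 FPKM. Of the 6 acinar genes tested 1 passed between drivers. Cd68, a gene of macrophages, was 34.4 to 148 FPKM with Pdx-Cre and 19.0 to 37.7 FPKM with RIP-Cre (log2 fold change 1.46, SE 0.24, limma adjusted p = 0.00152). The other immune genes listed did not follow it. Csf1r reached 0.368 FPKM with Pdx-Cre and 0.954 FPKM with RIP-Cre, and Lyz2 was 0 in every Pdx-Cre library. Cd52 was 0 throughout and Ptprc was at or below 0.0214 FPKM. The duct gene Krt19 was 2.97 to 18.8 FPKM with Pdx-Cre and 0 to 12.04 FPKM with RIP-Cre (1.90, SE 0.48, limma adjusted p = 0.0203). It was the only one of the 3 duct genes tested that passed. Of the 8 β-cell markers tested 6 were lower with Pdx-Cre (Mafa, Nkx6-1, Pdx1, Slc2a2, Ucn3 and Slc30a8). Of all 11254 genes tested 9.7% passed in either direction. Slc2a2, Nkx6-1, Ucn3 and Slc30a8 were lower in every Pdx-Cre library than in any RIP-Cre library. The same held for 0.715% of the 16928 genes detected in any library. The glucose transporter gene Slc2a2 stood at 8.61 to 24.6 FPKM against 99.95 to 227 FPKM. In such bulk samples, a change in the mix of cells and a change in RNA per cell cannot be told apart.

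Ldha, which makes lactate from pyruvate, was the member that varied most and the only one that reached high levels. The gene lies at chr7:54101174-54110997 (mm9, the build of the files). With RIP-Cre it stood at 1.43 and 2.11 FPKM in ALDH- controls and 0.397 FPKM in the ALDH+ control. It stood at 0.0651, 1.85 and 0.0680 FPKM in ALDH- knockouts, and at 0.0687, 1.01 and 1.63 FPKM in ALDH+ knockouts. None of these 9 libraries reached 3 FPKM, and 3 of them, all knockouts, held less than 1 fragment of Ldha.

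With Pdx-Cre, Ldha was 89.2 FPKM in the ALDH- control and 83.4 FPKM in the ALDH+ control. Knockout replicate 4 held 38.1 FPKM in ALDH- and 35.0 FPKM in ALDH+ cells. Knockout replicate 5 held 121 and 123 FPKM in the same order. Every Pdx-Cre library was thus far above every RIP-Cre library. The lowest values came from both libraries of knockout replicate 4 and the highest from both of knockout replicate 5. The mean was 81.6 ± 38.4 FPKM (SD, n = 6 libraries) with Pdx-Cre and 0.958 ± 0.828 FPKM (SD, n = 9 libraries) with RIP-Cre, a ratio of 85.1.

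On the log2(FPKM + 1) scale, adjusted for the 4 groups, Ldha was higher with Pdx-Cre by 5.43 (SE 0.35, limma over all genes with Benjamini-Hochberg adjustment, adjusted p = 4.25e-07), the smallest p of 11254 genes tested. In that comparison 9.7% of all genes tested passed an adjusted p of 0.05, and 5.62% passed and were higher. Genes entered this fit with a mean of at least 1 FPKM, which Ldha reached through its Pdx-Cre libraries. Without that filter Ldha again had the smallest p, of 16928 genes (5.43, SE 0.38, limma adjusted p = 3.07e-05). Leaving out any 1 library kept the difference between 5.20 and 5.67. The labels do not say whether libraries came from separate animals, so p-values measure the spread between these samples. The methods gate ALDH- and ALDH+ cells from the same dispersed islets, so an ALDH- and an ALDH+ library may share animals. The fit took all libraries as independent, and its SE could be too small where they do.

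**Figure D1:**
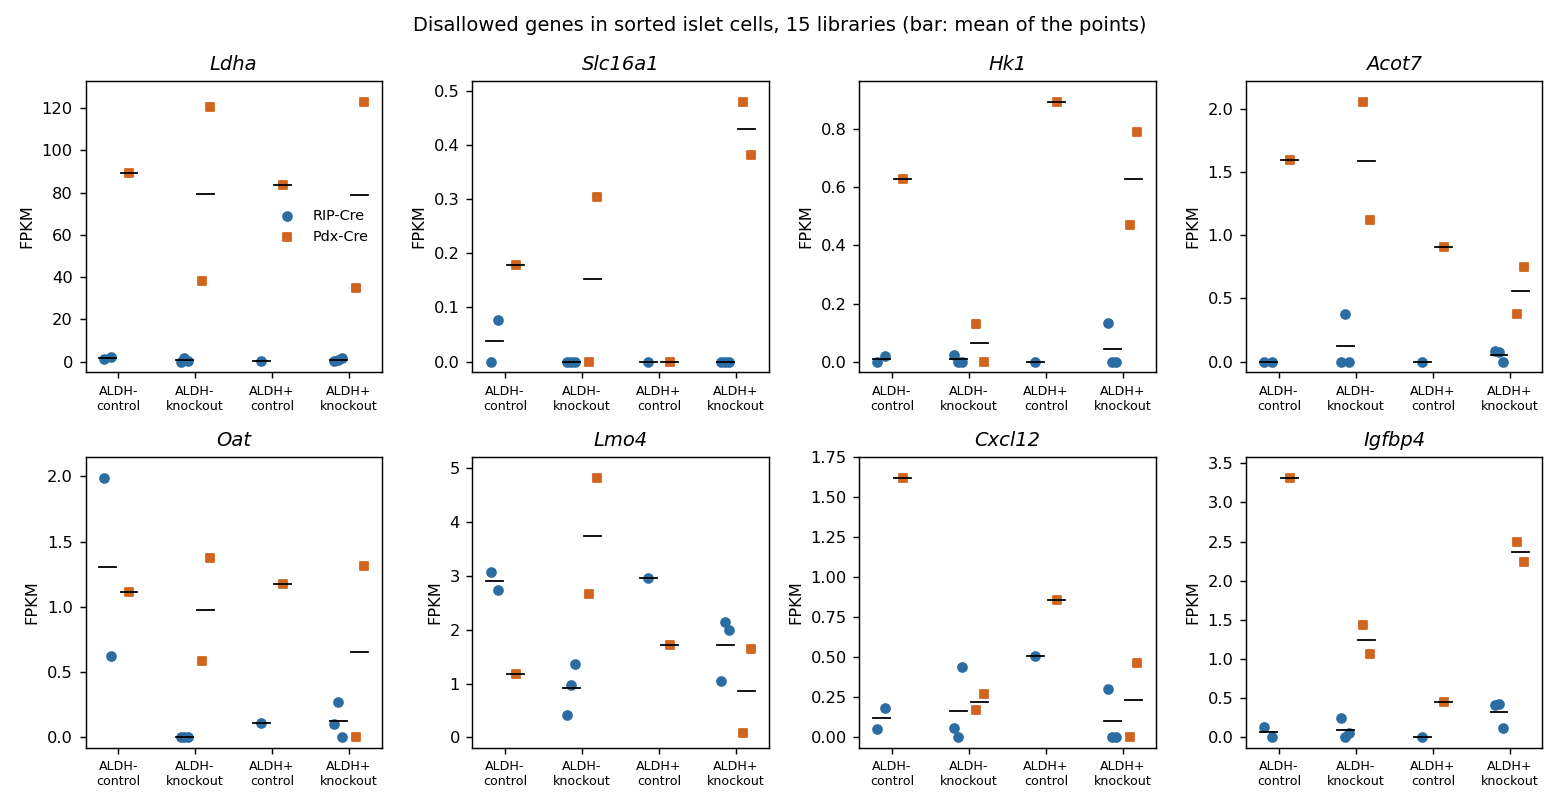
FPKM of the 8 members detected in at least 1 library, by group (horizontal axis) and cre driver (blue circles RIP-Cre, orange squares Pdx-Cre). Each point is 1 library, the bar is the mean of the points, and vertical scales differ between panels. Ldha lay between 35.0 and 123 FPKM in the 6 Pdx-Cre libraries and below 3 FPKM in the 9 RIP-Cre libraries, while Lmo4 overlapped throughout.

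Hormones of other islet cells, Ctrb1 and Cd68 were thus above the RIP-Cre range, and β-cell markers low, in most of the libraries in which Ldha was high. Their part in the difference was not tested. In the Pdx-Cre ALDH+ knockout replicate 4, Gcg (268 FPKM), Sst (752 FPKM), Ppy (127 FPKM) and Ctrb1 (0.285 FPKM) all lay within the RIP-Cre range, as did Cd68 (34.4 FPKM), and Ldha was 35.0 FPKM. In that library Krt19 (14.6 FPKM) was above the RIP-Cre range, and Slc2a2 (24.6 FPKM), Nkx6-1 (41.1 FPKM), Ucn3 (302 FPKM) and Slc30a8 (95.8 FPKM) were below it. In the Pdx-Cre ALDH+ knockout replicate 5, Gcg (598 FPKM), Sst (1156 FPKM) and Ppy (199 FPKM) were within that range, Ctrb1 was at 601 FPKM, and Ldha was 123 FPKM. The ALDH- control with the highest Gcg (35838 FPKM) held 89.2 FPKM of Ldha. Ldha was above the RIP-Cre range in every Pdx-Cre library, and Gcg was above it in 4 of them. The libraries with Gcg within that range differed from RIP-Cre in other markers named here.

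With the 3 libraries above 100 FPKM of Ctrb1 left out, a choice made after seeing the data, Ldha was higher with Pdx-Cre by 4.71 (SE 0.38, limma adjusted p = 1.11e-04). With the ALDH+ knockout replicate 4 as the only Pdx-Cre library kept, the difference was 4.35 (SE 0.71) and no longer passed the threshold (limma adjusted p = 0.0784). That last fit takes the lone library to vary like the rest.

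**Figure D2:**
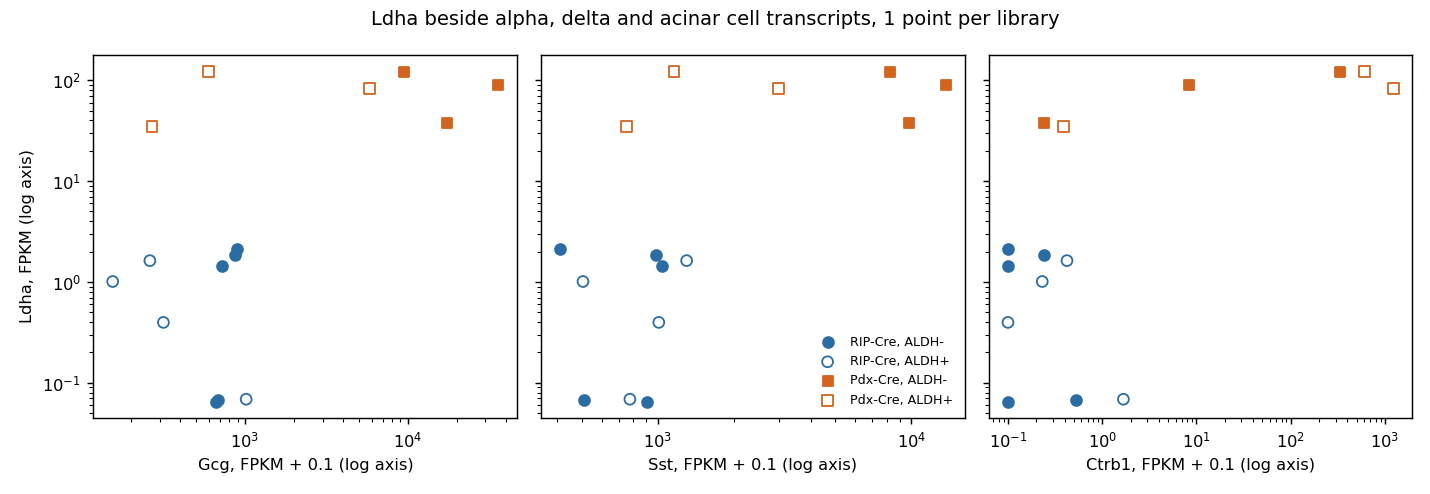
Ldha in FPKM (vertical, log axis) against the α-cell hormone Gcg, the δ-cell hormone Sst and the acinar gene Ctrb1, each in FPKM + 0.1 (horizontal, log axes). Each point is 1 library, with circles for RIP-Cre, squares for Pdx-Cre, filled for ALDH- and open for ALDH+. At Gcg values of 268 and 598 FPKM, inside the RIP-Cre range, the open squares hold 35.0 and 123 FPKM of Ldha. The library at 598 FPKM of Gcg held 601 FPKM of Ctrb1.

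The balance of the lactate dehydrogenase subunits differed with the driver. Ldhb, the subunit typical of oxidative tissue, was between 3.04 and 8.45 FPKM with RIP-Cre and between 1.52 and 6.21 FPKM with Pdx-Cre, and did not pass the test (log2 fold change -0.50, SE 0.27, adjusted p = 0.253). Ldhb exceeded Ldha in all 9 RIP-Cre libraries and Ldha exceeded Ldhb in all 6 Pdx-Cre libraries. Ldha made up 0.806% to 33.97% of the sum of both FPKM values with RIP-Cre (median 17.7%) and 93.5% to 97.5% with Pdx-Cre (median 95.5%). The germ cell subunit gene Ldhc was at or below 0.177 FPKM everywhere. Ldha has processed pseudogenes with nearly the same sequence, and how reads that fit several places were counted is not given in the sources used here.

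**Figure D3:**
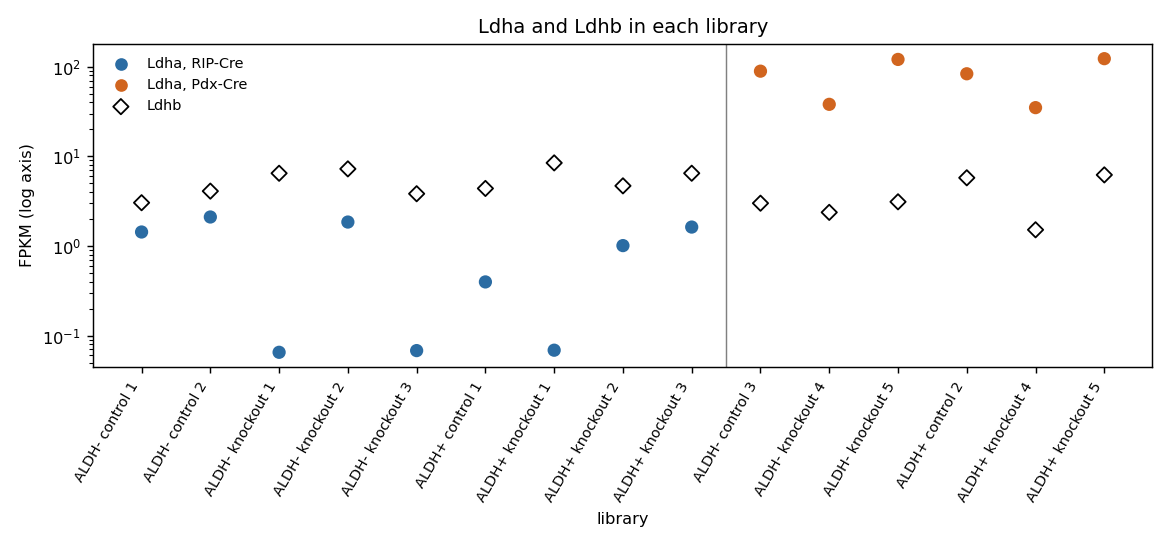
Ldha (filled circles, blue RIP-Cre, orange Pdx-Cre) and Ldhb (open diamonds) in FPKM on a log axis, 1 position per library, RIP-Cre left of the line and Pdx-Cre right of it. Ldhb stayed between 1.52 and 8.45 FPKM, and Ldha lay below it on the left and above it on the right.

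The genes whose levels over the 15 libraries were most like those of Ldha were Pfkfb3, Fam162a and Pgk1. Likeness was the mean absolute difference of standardised log2 values, at 0.174, 0.203 and 0.207 against a median of 1.13 over 11253 genes. Pfkfb3, which makes the main activator of phosphofructokinase, ran from 0.375 to 1.86 FPKM with RIP-Cre and from 10.2 to 17.5 FPKM with Pdx-Cre. Fam162a, a mitochondrial protein gene, ran from 18.3 to 51.6 and from 94.1 to 236 FPKM, and the glycolytic enzyme gene Pgk1 from 41.9 to 90.6 and from 189 to 265 FPKM. None of the 3 overlapped between drivers, but they were picked for likeness to Ldha in these same libraries. Their lack of overlap is thus no separate result.

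Slc16a1 (chr3:104442591-104462385, mm9) was close to silent. With RIP-Cre it was 0.0762 FPKM, or 4 fragments, in ALDH- control replicate 2 and listed at 0 in the other 8 libraries. With Pdx-Cre it was 0.179 FPKM in the ALDH- control and 0 in the ALDH+ control. It was 0 and 0.305 FPKM in ALDH- knockouts, and 0.480 and 0.381 FPKM in ALDH+ knockouts. These Pdx-Cre values come from 58.0 fragments in all, and 2 of the 6 libraries overlapped the RIP-Cre range at 0. A listing of 0 allows up to 3 fragments, or 0.0572 to 0.0778 FPKM depending on the library. Such limits cover counting error only.

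Hk1 (chr10:61731603-61842656, mm9) was above 0 in 3 of 9 RIP-Cre libraries, at 0.0207, 0.0237 and 0.133 FPKM. With Pdx-Cre it was 0.631 FPKM in the ALDH- control, 0.895 FPKM in the ALDH+ control, 0.130 and 0 FPKM in ALDH- knockouts, and 0.471 and 0.791 FPKM in ALDH+ knockouts. Of the Pdx-Cre libraries only the 2 ALDH- knockouts lay within the RIP-Cre range.

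Acot7 (chr4:151552209-151645964, mm9) was above 0 in 3 RIP-Cre libraries, at 0.376 FPKM in an ALDH- knockout and 0.0840 and 0.0767 FPKM in ALDH+ knockouts. With Pdx-Cre it was 1.59 FPKM in the ALDH- control, 0.908 FPKM in the ALDH+ control, 2.05 and 1.12 FPKM in ALDH- knockouts, and 0.375 and 0.747 FPKM in ALDH+ knockouts. The lowest Pdx-Cre value fell just below the highest RIP-Cre value, so the drivers overlapped by 1 library. The fragments behind these values number 62.9 with Pdx-Cre and 3.12 with RIP-Cre.

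Igfbp4 (chr11:98902574-98913957, mm9) encodes a secreted protein that binds insulin-like growth factors. With RIP-Cre it ranged from 0 to 0.431 FPKM with a median of 0.118 FPKM. With Pdx-Cre it was 3.32 FPKM in the ALDH- control, 0.447 FPKM in the ALDH+ control, 1.43 and 1.06 FPKM in ALDH- knockouts, and 2.49 and 2.24 FPKM in ALDH+ knockouts. The groups did not overlap, although the Pdx-Cre ALDH+ control, at 8 fragments, sat right above the top RIP-Cre library. Ldha and Igfbp4 were thus 2 of the 8 detected members with every Pdx-Cre library above every RIP-Cre library, against 0.709% of the 16928 genes detected in any library.

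Oat (chr7:139749158-139768081, mm9) overlapped widely. Its highest value, 1.99 FPKM, came from a RIP-Cre ALDH- control, whose fellow RIP-Cre control held 0.620 FPKM. It was listed at 0 in all 3 RIP-Cre ALDH- knockouts, and in ALDH+ RIP-Cre libraries it ran from 0 to 0.274 FPKM. With Pdx-Cre it was 0 in the ALDH+ knockout replicate 4 and between 0.585 and 1.37 FPKM in the other 5 libraries.

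Lmo4 (chr3:143851494-143868219, mm9), a LIM-only adaptor of transcription complexes, was the one member other than Ldha above 0 in all 15 libraries. It ran from 0.407 to 3.07 FPKM with RIP-Cre (median 1.99 FPKM, n = 9) and from 0.0798 to 4.83 FPKM with Pdx-Cre (median 1.69 FPKM, n = 6). The lowest value came from the Pdx-Cre ALDH+ knockout replicate 4 and the highest from the Pdx-Cre ALDH- knockout replicate 5. Its driver difference was 0.01 on the log2(FPKM + 1) scale, with a 95% interval of -0.71 to 0.74 (limma adjusted p = 0.986). That value averages over groups that differed in direction. Pdx-Cre was lower in ALDH- controls (1.17 against 2.73 and 3.07 FPKM) and in ALDH+ controls (1.72 against 2.96 FPKM). It was higher in ALDH- knockouts (2.67 and 4.83 against 0.407 to 1.36 FPKM), and the drivers overlapped in ALDH+ knockouts. The driver difference changed by -1.20 between ALDH+ and ALDH- cells (SE 0.64, limma adjusted p = 0.994). The genes most like it over the 15 libraries were Dus1l, Tspan5 and Paqr3, at 0.447, 0.520 and 0.530 by the same measure, each further from its member than the 3 genes named with Ldha were from theirs.

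Cxcl12 (chr6:117118553-117131386, mm9), the chemokine that binds Cxcr4, was at most 0.505 FPKM with RIP-Cre. With Pdx-Cre it ranged from 0 to 1.62 FPKM, with the 2 controls (1.62 and 0.854 FPKM) above the 4 knockouts (0 to 0.463 FPKM). How many genes split this way was not counted. With RIP-Cre the genotypes overlapped, with controls at 0.0505, 0.185 and 0.505 FPKM and knockouts from 0 to 0.441 FPKM. The Cxcl12 receptor genes Cxcr4 and Cxcr7 were at or below 0.0797 FPKM in every library.

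Maf (chr8:118227153-118230794) and Pdgfra (chr5:75548316-75594229), both in mm9, were listed at 0 in all 15 libraries and could not be tested. So were 26.2% of the 22924 genes kept. Maf encodes c-Maf, a transcription factor of α cells. Pdgfra marks mesenchymal cells, and the 6 stromal markers summed to at most 1.14 FPKM in any library.

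With the filter on a mean of 1 FPKM only Ldha and Lmo4 were tested, and the low members were compared in a fit over all 16928 genes with any value. In that fit 5 of the 8 members tested passed and were higher with Pdx-Cre, with a median over the 8 of 0.56, against 2.94% of all genes that passed and were higher (5.21% passed in either direction). They were Ldha, Igfbp4 (1.28, SE 0.16, adjusted p = 0.00144), Acot7 (0.99, SE 0.14, adjusted p = 0.00226), Hk1 (0.51, SE 0.11, adjusted p = 0.0182) and Slc16a1 (0.28, SE 0.07, adjusted p = 0.0464). Oat (0.62, SE 0.21, adjusted p = 0.123) and Cxcl12 (0.37, SE 0.17, adjusted p = 0.239) did not pass. All 8 estimates were above 0, and no member passed as lower. The added 1 in log2(FPKM + 1) understates the change of such low genes.

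Only the calls of Ldha, Igfbp4 and Acot7 held whichever single library was left out. Slc16a1 lost its call in 12 of 15 such fits, with adjusted p up to 0.113. Hk1 lost it in 3, namely without ALDH- control replicate 3, ALDH+ control replicate 1 or ALDH+ control replicate 2 (adjusted p up to 0.0638). Oat passed once, without ALDH+ knockout replicate 4 (0.79, adjusted p = 0.0382). Without the 3 libraries with acinar transcripts Igfbp4 passed (1.53, adjusted p = 0.00843), while Acot7 (1.07, adjusted p = 0.0526), Hk1 (0.46, adjusted p = 0.0712) and Slc16a1 (0.26, adjusted p = 0.232) did not. With the ALDH+ knockout replicate 4 as the only Pdx-Cre library, the differences were 1.42 for Igfbp4, 0.50 for Hk1, 0.57 for Slc16a1 and 0.39 for Acot7. In that library Slc16a1 rests on 21 fragments and Hk1 on 17.2. A lone library gives no spread among Pdx-Cre samples, so no call is drawn from these values.

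**Figure D4:**
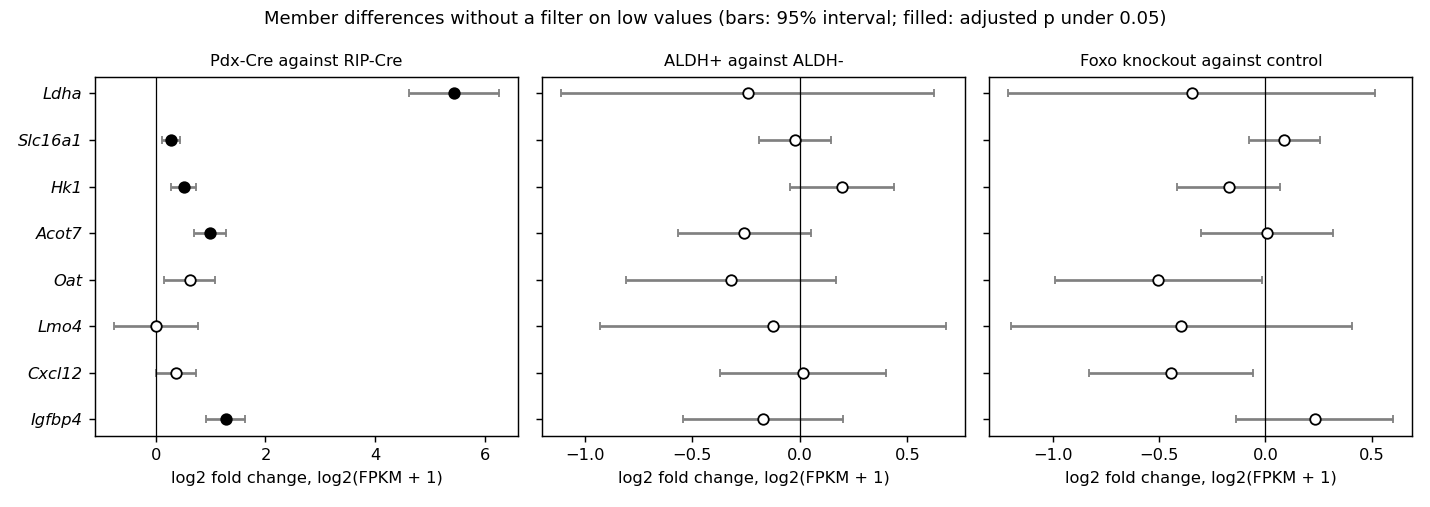
Log2 fold changes (horizontal, on log2(FPKM + 1), fit without a filter on low values) of the 8 members in 3 comparisons, with 95% intervals as bars and filled points for an adjusted p under 0.05. Horizontal scales differ between panels. In the driver panel 5 points are filled, with Ldha at 5.43, and in the ALDH and genotype panels none is.

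Dedifferentiation of β cells is the question behind the ALDH comparison, and no member passed between ALDH+ and ALDH- cells. None of the 2 members tested with the filter and none of the 8 tested without it passed, in the average of both genotypes, in controls or in knockouts. The background was 5.99% of genes with the filter and 3.2% without it in the average. It was 1.2% and 0.561% in controls, and 0.0178% and 0.0177% in knockouts. The 135 genes behind the control share fell to 0 without any 1 of the 3 ALDH- controls and to 1 without ALDH+ control replicate 1. The difference for Ldha was -0.24 (SE 0.36, 95% interval -1.01 to 0.53, limma adjusted p = 0.763), and for Lmo4 -0.12 (SE 0.36, 95% interval -0.89 to 0.64, limma adjusted p = 0.888). In controls the Ldha difference was -0.63 (SE 0.60, adjusted p = 0.709) and in knockouts 0.14 (SE 0.41, adjusted p = 0.917). Over the 8 members without the filter the median was -0.15, against 0.01 over all genes. At an unadjusted p under 0.05 there was Igfbp4 in controls (-0.74, SE 0.28, adjusted p = 0.267) and Hk1 in knockouts (0.28, SE 0.13, adjusted p = 0.470). Of all 16928 genes without the filter, 2301 in controls and 1779 in knockouts were under it as well.

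Loss of Foxo was not accompanied by a passing change in any member either. Of all genes 0.116% passed in the average of both ALDH populations with the filter, and 0.242% without it. Ldha differed by -0.35 (SE 0.36, 95% interval -1.12 to 0.42, limma adjusted p = 0.912). Lmo4 differed by -0.40 (SE 0.36, 95% interval -1.16 to 0.37, limma adjusted p = 0.892). Within the Pdx-Cre libraries alone the Ldha difference was -0.42 (SE 0.63, limma adjusted p = 1.000). At an unadjusted p under 0.05 there were Oat (-0.50, SE 0.22, adjusted p = 0.579) and Cxcl12 (-0.44, SE 0.18, adjusted p = 0.539), both at lower estimates in knockouts. Of all 16928 genes without the filter, 1435 were under it as well.

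In ALDH- cells 1 gene (0.00889%) passed between knockout and control with the filter, and in ALDH+ cells 0 of 11254 did, with 737 at an unadjusted p under 0.05. Without the filter the shares were 0.0118% and 0.195%. No member was among them by an adjusted p. Igfbp4 had the smallest unadjusted p of the members in ALDH+ cells (0.80, SE 0.26, adjusted p = 0.417) and in the test of whether genotype acted differently in ALDH+ and ALDH- cells (1.14, SE 0.34, adjusted p = 0.766), both without the filter. In these fits 1392 and 875 of 16928 genes were at an unadjusted p under 0.05. The tests of whether genotype or driver acted differently by ALDH population passed 0 of 11254 genes each with the filter, with 478 and 511 genes at an unadjusted p under 0.05. Without the filter 0.0945% and 0.0177% of genes passed. No member passed in either test. At an unadjusted p under 0.05 for the driver there were Hk1 (0.41, SE 0.18) and Acot7 (-0.61, SE 0.22), each with an adjusted p of 0.935 without the filter. In that fit 849 of 16928 genes were under it. For Ldha the driver difference itself changed by 0.03 between ALDH+ and ALDH- cells (SE 0.79, adjusted p = 0.999 without the filter).

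Relatives and partners of the members were counted for context: 62 other genes of the same enzyme, carrier, factor and ligand families, with 7 more disallowed genes among them. With the filter 28 were tested. With Pdx-Cre 4 were higher and 1, Mafa, was lower. Those higher included Bsg (0.48, SE 0.13, adjusted p = 0.0240), the chaperone that brings MCT1 to the membrane, Lmo1 (1.19, SE 0.26, adjusted p = 0.00994), a relative of Lmo4, and Odc1 (1.67, SE 0.30, adjusted p = 0.00316), which turns ornithine into putrescine. Without the filter 8 of 56 were higher and none lower, against 2.94% of all genes. Those below the filter were the hexokinase genes Hk2 (0.56, adjusted p = 0.0391) and Hkdc1 (0.66, adjusted p = 0.0141), the lactate exporter gene Slc16a3 (1.22, adjusted p = 0.0452), and 2 of the 7 disallowed genes, Smad3 (0.75, adjusted p = 0.00182) and Ndrg2 (0.61, adjusted p = 0.0253). Mafa did not pass without the filter (adjusted p = 0.0546).

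Hk2 was listed at 0 in all 9 RIP-Cre libraries and ran from 0.0179 to 1.17 FPKM with Pdx-Cre. Slc16a3 ran from 0 to 1.01 FPKM with RIP-Cre and from 0.236 to 4.19 FPKM with Pdx-Cre. The creatine carrier gene Slc16a12 was the most abundant carrier of the Slc16a family listed, at 19.7 to 40.3 FPKM, and did not pass (-0.24, SE 0.13, adjusted p = 0.268). Between ALDH+ and ALDH- cells 1 relative was higher, Acot11 (0.73, SE 0.20, adjusted p = 0.0430), a thioesterase relative of Acot7, and with no filter it did not pass (adjusted p = 0.0598). Between genotypes no relative passed.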

How the data were processed

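The authors deposited 1 table per library with FPKM (fragments per kilobase of transcript, scaled to library depth), its interval and a status for each gene. The submitters' notes name bcl2fastq 1.8.4, TopHat2 2.0.4 and the mouse build mm9; the quantification tool is not given in the sources used here. Symbols listed more than once (248) and genes marked as failed or too deep in any library were set aside, which left 22924 genes. Fragments were worked back from the interval of each FPKM and summed to 7492220 to 10058043 per library; FPKM of members rest on few of them, which limits precision. FPKM were rescaled by a trimmed mean of ratios and tested as log2(FPKM + 1) with limma 3.58.1 in R 4.3.3, with 4 groups and the cre driver as terms, over 11254 genes with a mean of at least 1 FPKM, or over all 16928 genes above 0 for members under that filter. P-values were Benjamini-Hochberg adjusted over all genes tested. All members were named, with relatives where compared or past the threshold, except some not reported here, and the 3 genes most like a tested member. The members and the lists were chosen with earlier results of these data known. The fit was tested on simulated data. Alternatives covered scaling, pseudocount, filters, driver, gene length, single libraries and replicate numbers.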

Additional observations from a re-analysis of the deposited data

Results flagged for a closer look

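In the 2 knockout groups of 5 libraries, 16 combinations of member and group were checked for a library that stands far from the other 4. The rule flags about 1 in 20 checks when values are normally distributed, and 4 were found. That rate does not apply here, because many values are 0. With 4 libraries at 0, as for Slc16a1, any value above 0 is flagged. All 4 are Pdx-Cre, and each group mixes 3 RIP-Cre with 2 Pdx-Cre libraries. Ldha was 123 FPKM in ALDH+ knockout replicate 5, with the next library at 35.0 FPKM. Slc16a1 was 0.305 FPKM in ALDH- knockout replicate 5, with the other 4 at 0. Hk1 was 0.130 FPKM in ALDH- knockout replicate 4, with the next library at 0.0237 FPKM. Oat was 1.31 FPKM in ALDH+ knockout replicate 5, with the next library at 0.274 FPKM.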

How the results depend on the processing

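The number of members past the threshold was recomputed under 22 to 28 alternatives per comparison and was unchanged in 236 of 238 values. In the driver comparison it was 1 with the filter, 5 with no filter on low values, and 0 with ALDH+ knockout replicate 4 as the only Pdx-Cre library; with any 1 library left out it was 1 to 1. In the other 8 comparisons it was 0 throughout. Both alternatives that drop libraries by their hormone or Ctrb1 level were chosen after seeing the data.

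Over all genes, ALDH- and ALDH+ samples that share a replicate number had correlations of deviations of -0.04 to 0.07. Control replicate 2 was compared across drivers there, and the check cannot exclude pairing. Ldha in the Pdx-Cre knockouts did match by number, at 38.1 and 35.0 FPKM in replicate 4 and at 121 and 123 FPKM in replicate 5. With the replicate block the drivers meet only through Pdx-Cre controls ALDH+ 2 and ALDH- 3, so it cannot decide these calls. Ldha was higher by 5.08 (limma adjusted p = 3.63e-04). Igfbp4 (1.58, adjusted p = 0.154), Acot7 (1.24, 0.230), Hk1 (0.88, 0.196) and Slc16a1 (0.10, 0.902) did not pass. With no rescaling Slc16a1 did not pass either (0.27, adjusted p = 0.0504).

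Some differences below the threshold changed sign, and the cause was not tested. For Lmo4 between drivers the values were -0.017 with no rescaling, -0.17 with a pseudocount of 0.1, -0.12 with the length trend removed, -0.98 with the replicate block, -0.36 without the 3 libraries with acinar transcripts, -1.32 with 1 Pdx-Cre library, and -0.27 to 0.27 with 1 library left out. Oat and Cxcl12 were at -0.16 and -0.13 with 1 Pdx-Cre library. For Lmo4 between ALDH populations the values were 0.082 with the length trend removed, 0.28 in RIP-Cre libraries, 0.060 without the 3 libraries, and -0.29 to 0.071 with 1 left out. Ldha was at 0.21 in the average and 0.28 in controls with no driver in the model. In knockouts it was at -0.033 in Pdx-Cre libraries and -0.10 to 0.43 with 1 left out. Lmo4 between genotypes was 0.17 in Pdx-Cre libraries.

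Counts over all genes moved more. Between drivers 1092 genes passed, against 132 without the 3 libraries, 58 with the block and 8 with 1 Pdx-Cre library. Between ALDH populations 674 passed, against 405 without the 3 libraries, 182 with no driver in the model, 179 with the length trend removed, 156 in RIP-Cre and 4 in Pdx-Cre libraries, and 9 with the block. Between genotypes 13 passed, against 41 with no filter and 0 in Pdx-Cre libraries. Single libraries moved these backgrounds too. The ALDH count fell to 3 without ALDH+ control replicate 1 and to 362, 301 and 407 without ALDH- control replicates 1, 2 and 3, the ALDH count in controls, 135, moved to 67, 80 and 75 without ALDH- knockout 1, ALDH+ knockout 4 and ALDH+ knockout 5, to 244 without ALDH+ knockout 3 and to 443 with the compared groups only, the driver count fell to 693 to 705 without ALDH- knockout 5, ALDH+ control 1 or 2, or ALDH+ knockout 5, and the genotype count to as few as 1 without ALDH+ control 2. A filter of 5 FPKM for Lmo4 and RIP-Cre libraries alone for Ldha could not be fitted, as their means fell below the filter. Few fragments limit every member but Ldha with Pdx-Cre.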
